A study of Homo sapiens with 29 samples.

Results

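Liver plasma protein and coagulation genes are the 51 genes described here, of 19785 protein-coding genes in the annotation. They were taken from a list of genes for secreted plasma proteins, not by their peaks, and each of the 51 names matched the annotation. For each gene, the positions and widths of peaks were read within 1 kb of a start of its protein-coding transcripts and across the gene body. The members fall into 6 role groups. Of these genes, 16 are for protease inhibitors and related proteins, and 13 are genes of coagulation and fibrinolysis. A further 4 are the genes of fibrinogen and of its relative FGL1. The rest are 6 carriers, 6 complement genes, and 6 acute phase and other plasma proteins.

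The study mapped subunits of the INO80 chromatin remodelling complex by chromatin immunoprecipitation and sequencing (ChIP-seq) in HepG2 and Huh7, both human liver cancer cell lines. For the groups used here the labels name no engineered change and no drug. The labels give 3 INO80 libraries in HepG2 and 2 in Huh7, 2 libraries per line for MCRS1 and RUVBL2, 2 for RUVBL1 in HepG2 and 2 for YY1 in Huh7, and 2 input libraries per line. Of the 3 HepG2 libraries of INO80, 2 used another lot of antibody than the third, whose lot was also used in Huh7. Peaks of YY1 in HepG2 came from ENCODE reads passed through the study's pipeline. A comparison of YY1 between the lines, or with another factor in HepG2, thus also compares laboratories. Each cell line is a single established line, and HepG2 and Huh7 differ in tumour of origin and in copy number.

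Hepatocytes make most of the proteins of blood plasma, among them clotting factors, the inhibitors that restrain proteases, complement, and carriers of iron, haem, hormones and vitamins. Many of these genes have promoters poor in CpG that are used by liver-enriched transcription factors such as HNF1, HNF4, C/EBP and FOXA proteins. INO80 is an ATPase that slides and edits nucleosomes. RUVBL1 and RUVBL2 are paired ATPases that form a ring in the complex and also belong to other complexes, MCRS1 is an accessory subunit, and YY1 is a DNA-binding transcription factor that joins the complex in mammals.

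The data hold 1 peak list per factor and line, 9 in all, with positions only. The lists ran from 3322 peaks for RUVBL2 in Huh7 to 39293 for YY1 in HepG2, and each Huh7 list was shorter than the HepG2 list of the same factor. There is no replicate list, so no difference has a replicate check and no test was possible. Read depth is unknown, and the number of peaks cannot be told apart from depth. Width is given where a height would be, since the lists hold none. An INO80 peak lay at a start of 63.7% of coding genes in HepG2 and 47.7% in Huh7. Among hepatocyte markers it was 10 of 10 in HepG2 and 6 of 10 in Huh7, with ALB, AFP, APOA1 and TTR, genes of abundant secreted liver proteins, lacking one in Huh7. For other cell types the counts in HepG2 and Huh7 were 4 and 2 of 5 bile duct markers, 1 and 4 of 5 neuronal, 1 and 1 of 5 blood cell, 1 and 0 of 4 endothelial, and 0 and 0 of 5 stellate cell markers.

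The starts of these genes were poor in CpG. Within 500 bp of the canonical start, the ratio of observed to expected CpG was under 0.48 for 48 of 51 members, or 94.1%, against 27.6% of coding genes. PROS1, which encodes the anticoagulant protein S, and TF, which encodes the iron carrier transferrin, were in the middle class at 0.71 and 0.57. RBP4, which encodes the plasma retinol carrier, was the 1 member in the class above 0.75, at 0.83. The 250 bases before the canonical start held a median of 2 CG pairs in members, with a range of 0 to 31, and a median of 18.0 in coding genes.

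These windows are shown because they span the range of CpG content and of occupancy among the members. They are hg19 sequence before the canonical start, on the strand of the gene, with each CG pair in capitals. AHSG (chr3:186330599-186330848, plus strand) had a wide INO80 peak in HepG2 and none in Huh7. PROC (chr2:128175753-128176002, plus strand) had INO80 in both lines, and FGB (chr4:155483913-155484162, plus strand) had no peak at a start in any list. For RBP4 (chr10:95360993-95361118, minus strand) the 126 bases next to the start are given, since exons of other transcripts cover the rest of its window.
AHSG: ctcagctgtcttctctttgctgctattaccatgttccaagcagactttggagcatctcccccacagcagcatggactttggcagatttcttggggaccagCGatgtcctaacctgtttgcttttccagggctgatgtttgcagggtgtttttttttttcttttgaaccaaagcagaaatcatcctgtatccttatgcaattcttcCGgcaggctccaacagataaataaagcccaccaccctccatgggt
PROC: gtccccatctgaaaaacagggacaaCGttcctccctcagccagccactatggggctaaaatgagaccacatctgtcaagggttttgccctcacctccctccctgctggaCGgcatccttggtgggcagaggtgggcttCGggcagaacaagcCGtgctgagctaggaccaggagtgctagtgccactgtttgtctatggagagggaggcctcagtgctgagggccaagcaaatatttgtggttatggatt
FGB: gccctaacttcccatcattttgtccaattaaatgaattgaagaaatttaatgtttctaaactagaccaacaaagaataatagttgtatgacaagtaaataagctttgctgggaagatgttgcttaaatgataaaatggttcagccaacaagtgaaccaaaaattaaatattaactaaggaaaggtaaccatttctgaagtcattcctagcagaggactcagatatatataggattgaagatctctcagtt
RBP4: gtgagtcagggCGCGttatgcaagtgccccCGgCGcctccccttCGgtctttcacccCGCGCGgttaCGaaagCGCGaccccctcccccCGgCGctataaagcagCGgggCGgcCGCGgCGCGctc
The full window held 2 CG pairs for AHSG, 4 for PROC and 0 for FGB, and the shorter stretch of RBP4 held 19.

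In HepG2, INO80 had a peak at a start of 32 of 51 members (62.7%), near the 63.7% of all coding genes. For MCRS1 it was 36 members (70.6%) against 58.1%, and for YY1 39 members (76.5%) against 62.6%. RUVBL2 had a peak at 25 members (49.0%) against 39.1%, and RUVBL1 at 17 members (33.3%) against 16.8%. The members' share was thus above that of coding genes for MCRS1, RUVBL1, RUVBL2 and YY1, and level with it for INO80. All 5 HepG2 lists had a peak at a start of 15 members, against 14.4% of coding genes, and none had one at 10 members, against 29.9%. No list had a peak at a start or in the body of 5 members, F13B, FGB, CRP, HRG and FETUB, against 20.4% of coding genes.

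In Huh7 the members' shares were below those of coding genes in each list. INO80 had a peak at a start of 12 members (23.5%) against 47.7%, MCRS1 at 7 (13.7%) against 21.8%, RUVBL2 at 2 (3.92%) against 12.7%, and YY1 at 16 (31.4%) against 51.5%. No Huh7 list had a peak at 33 members, against 40.8% of coding genes, and no member had a peak in all 4, against 9.07%.

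**Figure D1:**
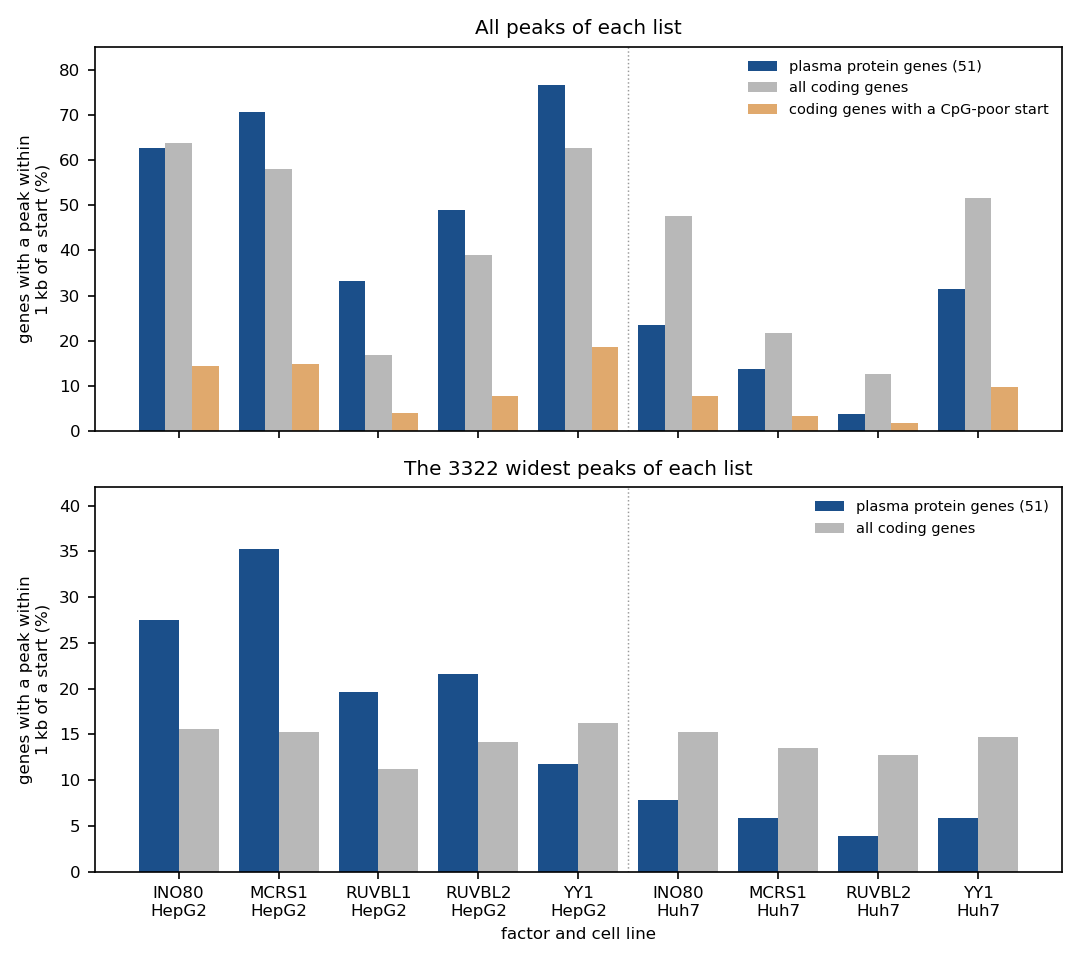
Share of genes with a peak within 1 kb of a start (vertical axis, percent) for each factor and line, with all peaks above and with the 3322 widest peaks of each list below. Bars stand for the 51 plasma protein genes, all coding genes and, above, coding genes with a CpG-poor start; the members sit at 62.7% for INO80 in HepG2 and at 23.5% in Huh7.

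Set beside coding genes whose starts are as poor in CpG, the members had a higher share with a peak in 8 of the 9 lists, the exception being RUVBL2 in Huh7, where both shares were about the same. Of the 48 CpG-poor members, 29 had INO80 at a start in HepG2 (60.4%), against 14.4% of CpG-poor coding genes. The counts in HepG2 were 33 for MCRS1 against 14.8%, 36 for YY1 against 18.7%, 22 for RUVBL2 against 7.71%, and 17 for RUVBL1 against 3.99%. In Huh7, 9 of the 48 had INO80 (18.8%) against 7.88%, 13 had YY1 against 9.86%, 6 had MCRS1 against 3.30%, and 1 had RUVBL2 (2.08%) against 1.89%. The CpG class is that of the canonical start, while a peak counts at any start. C5 is counted in Huh7 for INO80, MCRS1 and YY1, and in HepG2 for YY1, through the upstream start it shares with CNTRL. FGL1 is counted in HepG2 for RUVBL1 and RUVBL2 through a start other than its canonical one. RBP4 and the middle-class PROS1 and TF had INO80 in both lines.

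Most members with INO80 had it in HepG2 alone. INO80 lay at a start in both lines for 11 members, against 45.3% of coding genes, and in HepG2 alone for 21, against 18.4%. It lay in Huh7 alone at SERPING1, which encodes C1 inhibitor, against 2.40% of coding genes, and in neither line for 18, against 33.9%. For MCRS1 the counts were 7 in both lines (21.2% of coding genes), 29 in HepG2 alone (37.0%), 0 in Huh7 alone (0.697%) and 15 in neither (41.2%). RUVBL2 was at TF in both lines (11.2% of coding genes), at 24 members in HepG2 alone (27.9%), at AMBP in Huh7 alone (1.42%) and at 25 in neither (59.5%). YY1 was at 15 members in both lines (48.5% of coding genes), at 24 in HepG2 alone (14%), at SERPING1 in Huh7 alone (3%) and at 11 in neither (34.4%). With lists of equal length, the 3322 widest peaks of each, INO80 was at 14 members in HepG2 against 15.6% of coding genes and at 4 in Huh7 against 15.3%. The 4 were F2, PROS1, RBP4 and C5. The same lists in HepG2 had MCRS1 at 18 members against 15.3%, RUVBL1 at 10 against 11.2%, RUVBL2 at 11 against 14.2%, and YY1 at 6 against 16.2%. In Huh7 they had MCRS1 at 3 against 13.5%, RUVBL2 at 2 against 12.7%, and YY1 at 3 against 14.7%. At equal length the members were thus above coding genes for INO80, MCRS1, RUVBL1 and RUVBL2 in HepG2 and below them for YY1 in HepG2 and for every factor in Huh7. These lists were cut by width, so the shares depend on peak width as well as on the presence of a peak. With all peaks, INO80 in HepG2 was level with coding genes and YY1 in HepG2 was above them.

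**Figure D2:**
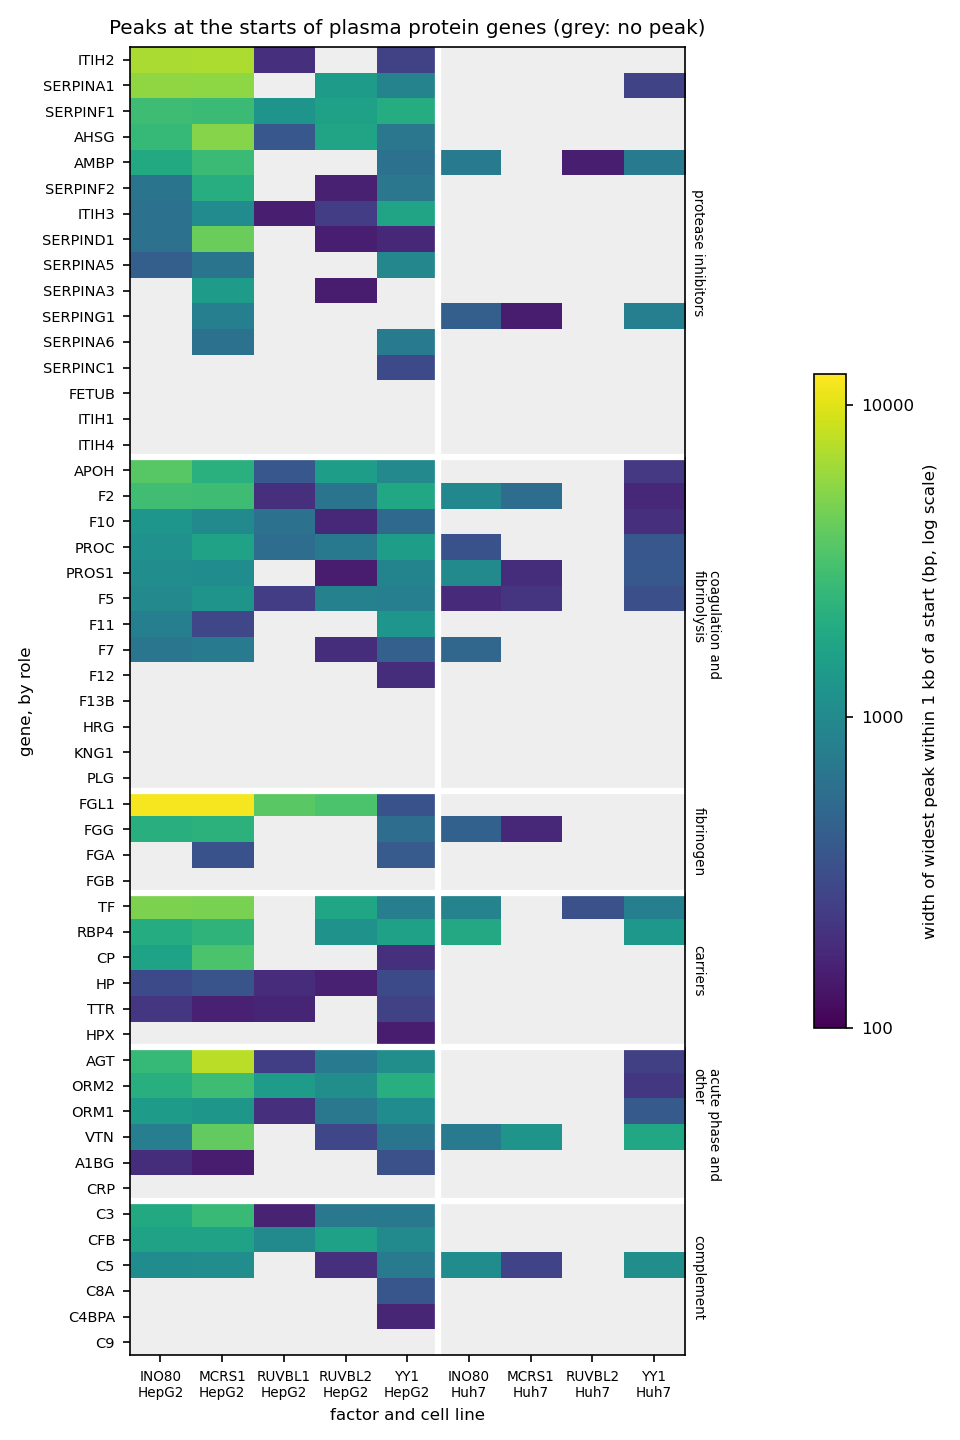
Width of the widest peak within 1 kb of a start (colour, bp on a log scale) for each of the 51 genes (rows, by role) in the 9 peak lists (columns), with grey for no peak. The HepG2 columns hold most of the colour, FGL1 has the widest peaks at 11744 bp for INO80, and 10 rows are grey throughout.

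Of the 16 genes of protease inhibitors and related proteins, 9 had INO80 at a start in HepG2 and 2, SERPING1 and AMBP, in Huh7. SERPINA1 encodes alpha-1 antitrypsin, the main inhibitor of neutrophil elastase. Its widest peaks at a start in HepG2 were 5640 bp for INO80 (chr14:94849244-94854883), 5565 bp for MCRS1, 1430 bp for RUVBL2 and 864 bp for YY1. RUVBL1 had a peak in its body but none at a start. In Huh7 it had no INO80, MCRS1 or RUVBL2 peak at a start or in the body. It had 1 YY1 peak of 270 bp at a start there, and further YY1 peaks in its body. Its INO80 peak was wider than that of 99.1% of bound coding genes, and it ran from 43 bp inside the nearest start to 5682 bp into the gene.

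ITIH2 encodes a heavy chain of the inter-alpha-trypsin inhibitors, which bind hyaluronan. Its HepG2 peaks were 6819 bp for INO80 (chr10:7743330-7750148), 6918 bp for MCRS1, 196 bp for RUVBL1 and 255 bp for YY1, with no RUVBL2 peak at a start and no peak in Huh7. AHSG encodes fetuin-A, which keeps calcium phosphate from precipitating. It had HepG2 peaks of 2563 bp for INO80 (chr3:186330152-186332714), 5248 bp for MCRS1, 370 bp for RUVBL1, 1691 bp for RUVBL2 and 675 bp for YY1, and none in Huh7. Both genes were thus occupied by INO80 in HepG2 and had no peak of any factor at a start in Huh7.

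SERPINF1 encodes pigment epithelium-derived factor. Its HepG2 peaks were 2830 bp for INO80 (chr17:1664891-1667720), 2681 bp for MCRS1, 1217 bp for RUVBL1, 1602 bp for RUVBL2 and 2015 bp for YY1, with none at a start in Huh7. AMBP, which encodes alpha-1-microglobulin and bikunin from a single precursor, had 1870 bp for INO80, 2705 bp for MCRS1 and 623 bp for YY1 in HepG2. In Huh7 it had 744 bp for INO80, 150 bp for RUVBL2 and 727 bp for YY1. SERPING1 went the other way for INO80, with no peak at a start in HepG2 and 432 bp in Huh7 (chr11:57365624-57366055). It had an MCRS1 peak in both lines, 809 bp wide in HepG2 against 147 bp in Huh7, and a YY1 peak of 802 bp in Huh7. These MCRS1 peaks did not overlap, and 147 bp was the least width at a coding start in the Huh7 MCRS1 list.

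The other genes of this group had narrower INO80 peaks in HepG2 or none. They were 642 bp at SERPINF2 (alpha-2 antiplasmin), 611 bp at ITIH3, 606 bp at SERPIND1 (heparin cofactor II) and 432 bp at SERPINA5 (protein C inhibitor). SERPIND1 had an MCRS1 peak of 4167 bp in HepG2. SERPINA3 (alpha-1 antichymotrypsin) had MCRS1 and RUVBL2 peaks, SERPINA6 (corticosteroid-binding globulin) MCRS1 and YY1, and SERPINC1 (antithrombin) YY1, all in HepG2. FETUB, ITIH1 and ITIH4 had no peak at a start in any list.

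Of the 13 coagulation and fibrinolysis genes, 8 had INO80 at a start in HepG2, and 5 of those 8 also in Huh7. F2 encodes prothrombin, the precursor of the protease that cuts fibrinogen. Its HepG2 peaks were 2838 bp for INO80 (chr11:46739628-46742465), 2812 bp for MCRS1, 192 bp for RUVBL1, 647 bp for RUVBL2 and 1817 bp for YY1. In Huh7 they were 950 bp for INO80, 565 bp for MCRS1 and 170 bp for YY1. F2 had narrower peaks in Huh7 for each factor found in both lines, and its Huh7 INO80 peak ended 117 bp before the nearest start.

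APOH encodes beta-2 glycoprotein I, which binds anionic phospholipid. It had HepG2 peaks of 3552 bp for INO80 (chr17:64222450-64226001), 2150 bp for MCRS1, 374 bp for RUVBL1, 1477 bp for RUVBL2 and 979 bp for YY1. In Huh7 it had a YY1 peak of 222 bp and no other.

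PROS1 had an INO80 peak of 1066 bp in HepG2 and another of 1016 bp in Huh7. PROC, which encodes the anticoagulant protease protein C, had 1148 bp and 338 bp. F5, a cofactor that speeds the making of thrombin, had 970 bp and 178 bp. F7, which starts clotting together with tissue factor, had 665 bp and 496 bp. Of these genes PROS1 alone kept nearly its HepG2 width. In Huh7, YY1 was at a start of PROS1, PROC and F5 but not of F7. F10 and F11, which encode clotting proteases, had INO80 peaks of 1272 bp and 800 bp in HepG2 and none in Huh7. F12 had YY1 at a start in HepG2, while F13B, HRG, KNG1 and PLG, the gene of plasminogen, had no peak at a start.

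Fibrinogen is built from the products of FGA, FGB and FGG, which lie together, and the 3 genes did not look alike. FGG, the gamma chain, had HepG2 peaks of 2132 bp for INO80 (chr4:155531894-155534025), 2215 bp for MCRS1 and 562 bp for YY1. In Huh7 it had 445 bp for INO80 and 171 bp for MCRS1. FGA, the alpha chain, had MCRS1 of 338 bp and YY1 of 400 bp in HepG2 and no INO80 peak at a start. The nearest INO80 peak in HepG2 lay 1083 bp from the FGA start, just outside the 1 kb window. FGB, the beta chain, had no peak at a start in any list. RUVBL1 and RUVBL2 had no peak between the outer ends of FGB and FGG in HepG2, and RUVBL2 had none there in Huh7.

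FGL1 encodes a liver-secreted relative of fibrinogen. It had the widest INO80 and MCRS1 peaks at a start among the members, 11744 bp and 11776 bp in HepG2, both about its upstream start. Its other HepG2 peaks were 3630 bp for RUVBL1, 3208 bp for RUVBL2 and, at another start, 336 bp for YY1. At its canonical start, further into the gene, the INO80 peak in HepG2 was 2663 bp wide. No list had a peak at its starts in Huh7. The INO80 peak (chr8:17762870-17774613) was wider than that of 99.9% of bound coding genes and ran from 6739 bp before the start to 5004 bp into the gene.

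All 6 carriers had YY1 at a start in HepG2, 5 had INO80 there, and 2, TF and RBP4, had INO80 in Huh7. TF had HepG2 peaks of 4877 bp for INO80 (chr3:133464647-133469523), 4755 bp for MCRS1, 1739 bp for RUVBL2 and 792 bp for YY1. In Huh7 they were 877 bp for INO80, 331 bp for RUVBL2 and 800 bp for YY1, so the YY1 peak had about the same width in both lines while the INO80 peak did not. RBP4 was the reverse case for INO80, at 1992 bp in HepG2 against 1857 bp in Huh7. CP (ceruloplasmin, a copper protein) had an INO80 peak of 1652 bp in HepG2, and HPX (hemopexin, which binds haem) a YY1 peak of 147 bp alone. That was the least YY1 width at a coding start in HepG2.

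HP encodes haptoglobin, which binds free haemoglobin, and TTR encodes transthyretin, which carries thyroxine. Both are abundant plasma proteins, and both had narrow INO80 peaks in HepG2, 295 bp at HP and 216 bp at TTR, with no peak in Huh7. Reads at HP can also come from HPR, a near-identical gene, and ORM1 and ORM2 are near-identical to each other, so placement of reads at these 3 genes is uncertain.

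Of the acute phase and other plasma proteins, 5 of 6 had INO80 at a start in HepG2 and VTN alone had it in Huh7. AGT encodes angiotensinogen, the precursor of angiotensin. Its HepG2 peaks were 2562 bp for INO80 (chr1:230847865-230850426), 7693 bp for MCRS1, 245 bp for RUVBL1, 753 bp for RUVBL2 and 1098 bp for YY1. In Huh7 it had a YY1 peak of 251 bp at a start, and INO80 and MCRS1 peaks in its body alone. VTN encodes vitronectin, an adhesion protein. It had HepG2 peaks of 787 bp for INO80, 3952 bp for MCRS1, 282 bp for RUVBL2 and 653 bp for YY1. In Huh7 it had 739 bp for INO80, 1221 bp for MCRS1 and 1793 bp for YY1, so its YY1 peak was wider in Huh7. The INO80 and YY1 peaks at VTN in both lines also lay within 1 kb of a start of its neighbour SARM1.

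ORM1 and ORM2 encode orosomucoid, an acute phase glycoprotein. They had INO80 peaks of 1429 bp and 2092 bp in HepG2 and none in Huh7. A1BG had 190 bp in HepG2. CRP, the gene of C-reactive protein, had no peak at a start in any list.

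Of 6 complement genes, C3, C5 and CFB had INO80 at a start in HepG2 and C5 in Huh7. C3 encodes the central component of the cascade and had HepG2 peaks of 1893 bp for INO80, 2620 bp for MCRS1, 158 bp for RUVBL1, 690 bp for RUVBL2 and 700 bp for YY1. CFB, which encodes the protease of the alternative pathway, had 1621 bp, 1637 bp, 1003 bp, 1589 bp and 1019 bp in that order of factors. Neither had a peak at a start in Huh7. C5, the precursor of the anaphylatoxin C5a, had INO80 peaks of 1055 bp in each line. These lay at an upstream start that it shares with its neighbour CNTRL. At its canonical start C5 had a narrower INO80 peak of 458 bp in HepG2 and none in Huh7. C4BPA and C8A had YY1 alone at a start, in HepG2, and C9 had no peak there.

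Peaks at the members' starts in HepG2 were wider than at coding genes in general for INO80 and MCRS1, and narrower for YY1. The median width was 1525 bp for INO80, with a range of 190 to 11744 bp, against 1118 bp over the bound coding genes. For MCRS1 it was 1834 bp against 1148 bp, for RUVBL2 690 bp against 518 bp, for RUVBL1 245 bp against 314 bp, and for YY1 680 bp against 909 bp. Over bound coding genes with CpG-poor starts the medians were 784 bp for INO80, 837 bp for MCRS1, 307 bp for RUVBL1, 420 bp for RUVBL2 and 489 bp for YY1, so against those the members were wider for YY1 as well. INO80 was wider than YY1 at 23 of 32 members with both, with a median ratio of 1.46 against 1.10 over coding genes. MCRS1 was wider than YY1 at 27 of 34, with a median ratio of 1.58 against 1.18. These HepG2 ratios also compare laboratories, since YY1 came from ENCODE reads, and at FGL1 the 2 peaks lay at different starts. The Huh7 ratios were 0.997 against 0.939 for INO80 to YY1, with INO80 wider at 5 of 10 members. For MCRS1 to YY1 they were 0.571 against 0.427, with MCRS1 wider at 1 of 6. In Huh7 the medians were 742 bp against 635 bp for INO80, 211 bp against 310 bp for MCRS1, 240 bp against 277 bp for RUVBL2, and 376 bp against 658 bp for YY1.

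Peaks of at least 2000 bp lay at the starts of 11 members for INO80 in HepG2, against 12% of coding genes, and of 18 for MCRS1, against 10.1%. For YY1 they were SERPINF1 and ORM2, against 4.07%, and for RUVBL1 and RUVBL2 FGL1, against 0.48% and 2.26%. In Huh7 no member had one, against 3.27% of coding genes for INO80, 0.399% for MCRS1, 0.556% for RUVBL2 and 3.13% for YY1. At the 11 members with INO80 in both lines, the HepG2 peak was wider at 10 and equal at C5, with a median ratio of 2.51. Over the coding genes with INO80 in both lines the median ratio was 1.78, so wider HepG2 peaks were general.

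By median, peaks at the members lay mostly on the transcribed side in every list except YY1 in HepG2. In HepG2 a median of 73.9% of the members' INO80 peak was downstream of the nearest start, against 65.1% over coding genes. For MCRS1 it was 81.6% against 60.2%, and for YY1 43.3% against 56.4%. Of the HepG2 peaks of at least 2000 bp, 9 of 11 for INO80 and 16 of 18 for MCRS1 reached further into the gene than before the start. FGL1 and ORM2 were the exceptions for both, with INO80 reaching 6739 bp and 1595 bp before the start and 5004 bp and 496 bp into the gene. The MCRS1 peak of AGT reached 7612 bp into the gene, those of ITIH2, SERPINA1, AHSG and TF reached 4604, 4942, 4495 and 4372 bp, and the INO80 peak of AGT reached 2447 bp.

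**Figure D3:**
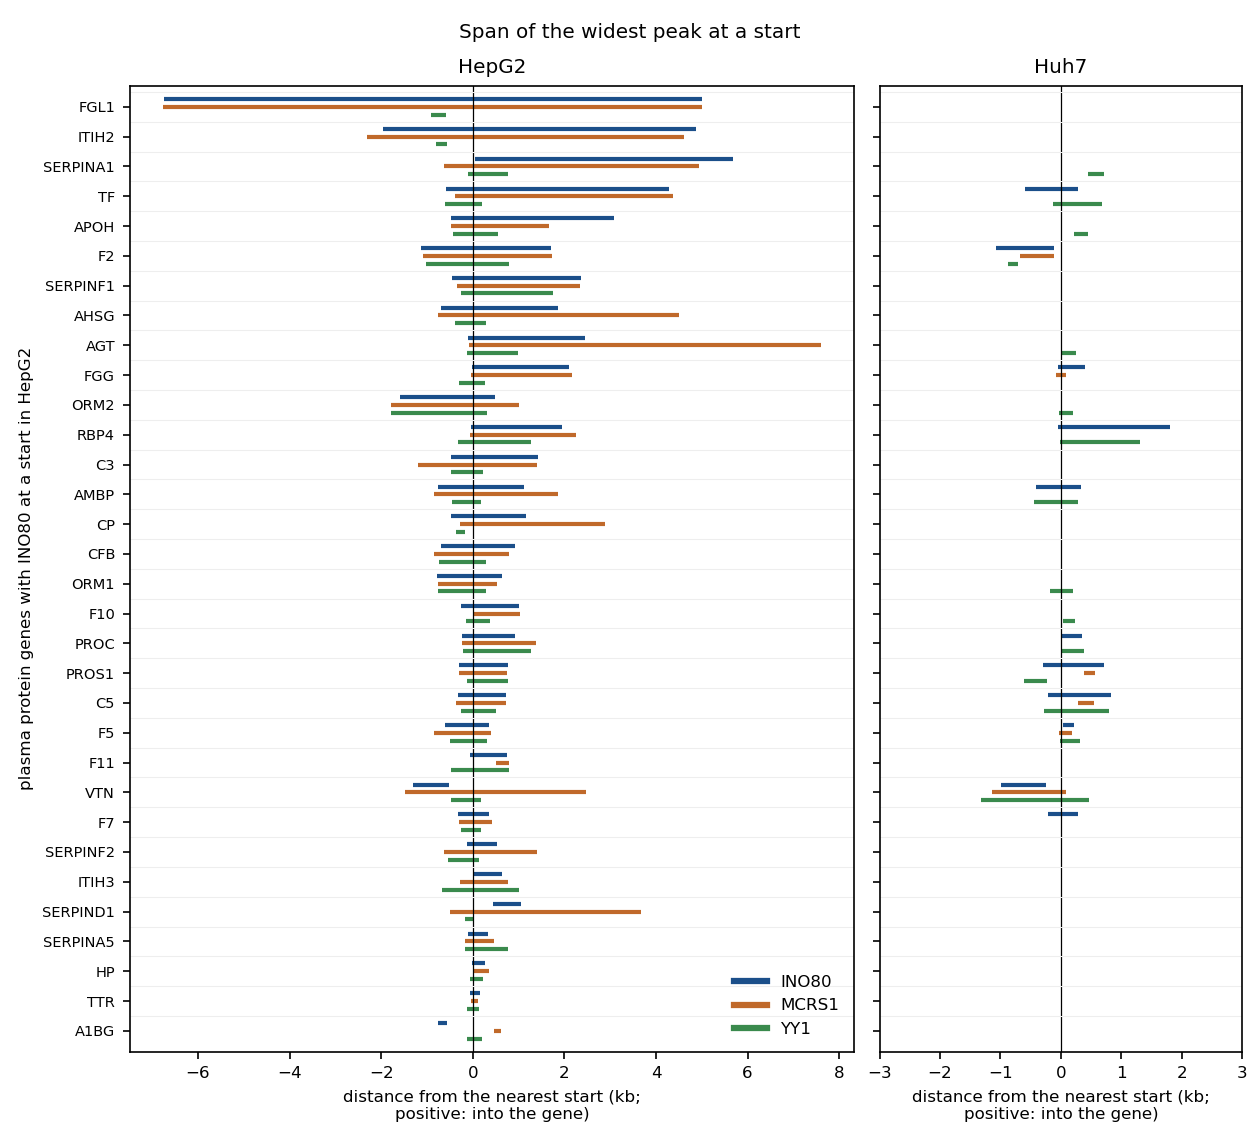
Span of the widest INO80, MCRS1 and YY1 peak (coloured bars) about the nearest start (horizontal axis, kb, positive into the gene) for the 32 members with INO80 at a start in HepG2, with HepG2 on the left and Huh7 on the right at another scale. Each bar is placed from the start nearest to it, which for FGL1 is another start for YY1 than for INO80; the MCRS1 bar of AGT reaches 7612 bp into the gene.

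Few gene bodies were covered by peaks over most of their length. In HepG2 a peak overlapped the gene body by at least 1 bp at 32 members for INO80, against 65.9% of coding genes. It did so at 38 for MCRS1 (61.3%), 16 for RUVBL1 (16.8%), 27 for RUVBL2 (39.7%) and 42 for YY1 (71.4%). In Huh7 the counts were 14 for INO80 (48.1%), 7 for MCRS1 (20.5%), 3 for RUVBL2 (12.7%) and 20 for YY1 (56.0%). C9, AGT and FGL1 had INO80 in the body but at no start in Huh7, against 5.08% of coding genes. At least 50% of the body was covered by INO80 in HepG2 at SERPINA1 (58.9%) and AHSG (57.0%), against 2.11% of coding genes. For MCRS1 it was SERPINA1 (72.1%), VTN (68.1%) and AHSG (59.0%), against 1.75%, and no member reached it in the other 7 lists. The share of coding genes that did was 0.323% for RUVBL1, 0.925% for RUVBL2 and 0.839% for YY1 in HepG2, and 0.975% for INO80, 0.359% for MCRS1, 0.505% for RUVBL2 and 1.53% for YY1 in Huh7.

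Next for INO80 came FGG at 34.2%, VTN at 27.8% and SERPINF1 at 20.4%, and next for MCRS1 ORM2 at 29.7% and ORM1 at 28.6%. The highest values for YY1 in HepG2 were 30.5% at VTN, 22.9% at SERPINA1, 15.4% each at PROC and AHSG, and 14.6% at SERPINF1. These are short genes: AHSG is 8259 bp, VTN 5806 bp and SERPINA1 13947 bp long, so a peak of a given width covers more of them.

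INO80 at a member's start in HepG2 came with MCRS1 and YY1, and less often with RUVBL2 and RUVBL1. All 32 members with INO80 there also had MCRS1 and YY1 at a start. Both pairs thus stood at 62.7% of the 51 members, against 55.0% of coding genes for INO80 with MCRS1 and 56.7% for INO80 with YY1. No member had INO80 without YY1, against 7.01% of coding genes. At C5 the YY1 peak lay at the upstream start shared with CNTRL, and the canonical start had INO80 and MCRS1 but no YY1. Under the INO80 peak itself, MCRS1 overlapped at 31 of 32 (85.1% of coding genes with INO80), YY1 at 30 (87.2%), RUVBL2 at 24 (59.5%) and RUVBL1 at 17 (25.9%). The exceptions were A1BG for MCRS1, and SERPIND1 and A1BG for YY1. All partners lay under the INO80 peak at 16 members, against 22.7%. YY1 was at a start without INO80 at 7 members, against 5.87% of coding genes: SERPINA6, SERPINC1, F12, FGA, HPX, C4BPA and C8A.

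In Huh7, INO80 and YY1 were both at a start of 10 members, against 40.4% of coding genes. INO80 without YY1 was at F7 and FGG, against 7.27%. Under the Huh7 INO80 peak MCRS1 overlapped at 7 of 12 (40.4%), YY1 at 10 (78.3%) and RUVBL2 at 2 (23.2%), and no member had all 3, against 18.0%.

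Several members lie in clusters. The 320 kb from SERPINA6 to SERPINA3 (chr14:94770585-95090392) held 14 INO80, 21 MCRS1, 2 RUVBL1, 9 RUVBL2 and 34 YY1 peaks in HepG2, with the widest INO80 peak at SERPINA1. It also holds SERPINA11, SERPINA9, SERPINA12 and SERPINA4, which are not among the 51, and the counts include peaks at these. In Huh7 the same stretch held 4 YY1 peaks and no peak of INO80, MCRS1 or RUVBL2. The 131 kb from AHSG to KNG1 (chr3:186330849-186462199) held 3 INO80, 4 MCRS1, 3 RUVBL1, 1 RUVBL2 and 7 YY1 peaks in HepG2, and its FETUB, HRG and KNG1 had none at a start. In the 53.1 kb from ITIH1 to ITIH4 there was 1 peak each of INO80, MCRS1, RUVBL1 and RUVBL2, all at ITIH3, and 6 of YY1. Both of these stretches had no peak of any factor in Huh7. From FGB to FGG there were 5 INO80, 6 MCRS1 and 6 YY1 peaks in HepG2, and 2 INO80, 1 MCRS1 and 1 YY1 in Huh7.

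**Figure D4:**
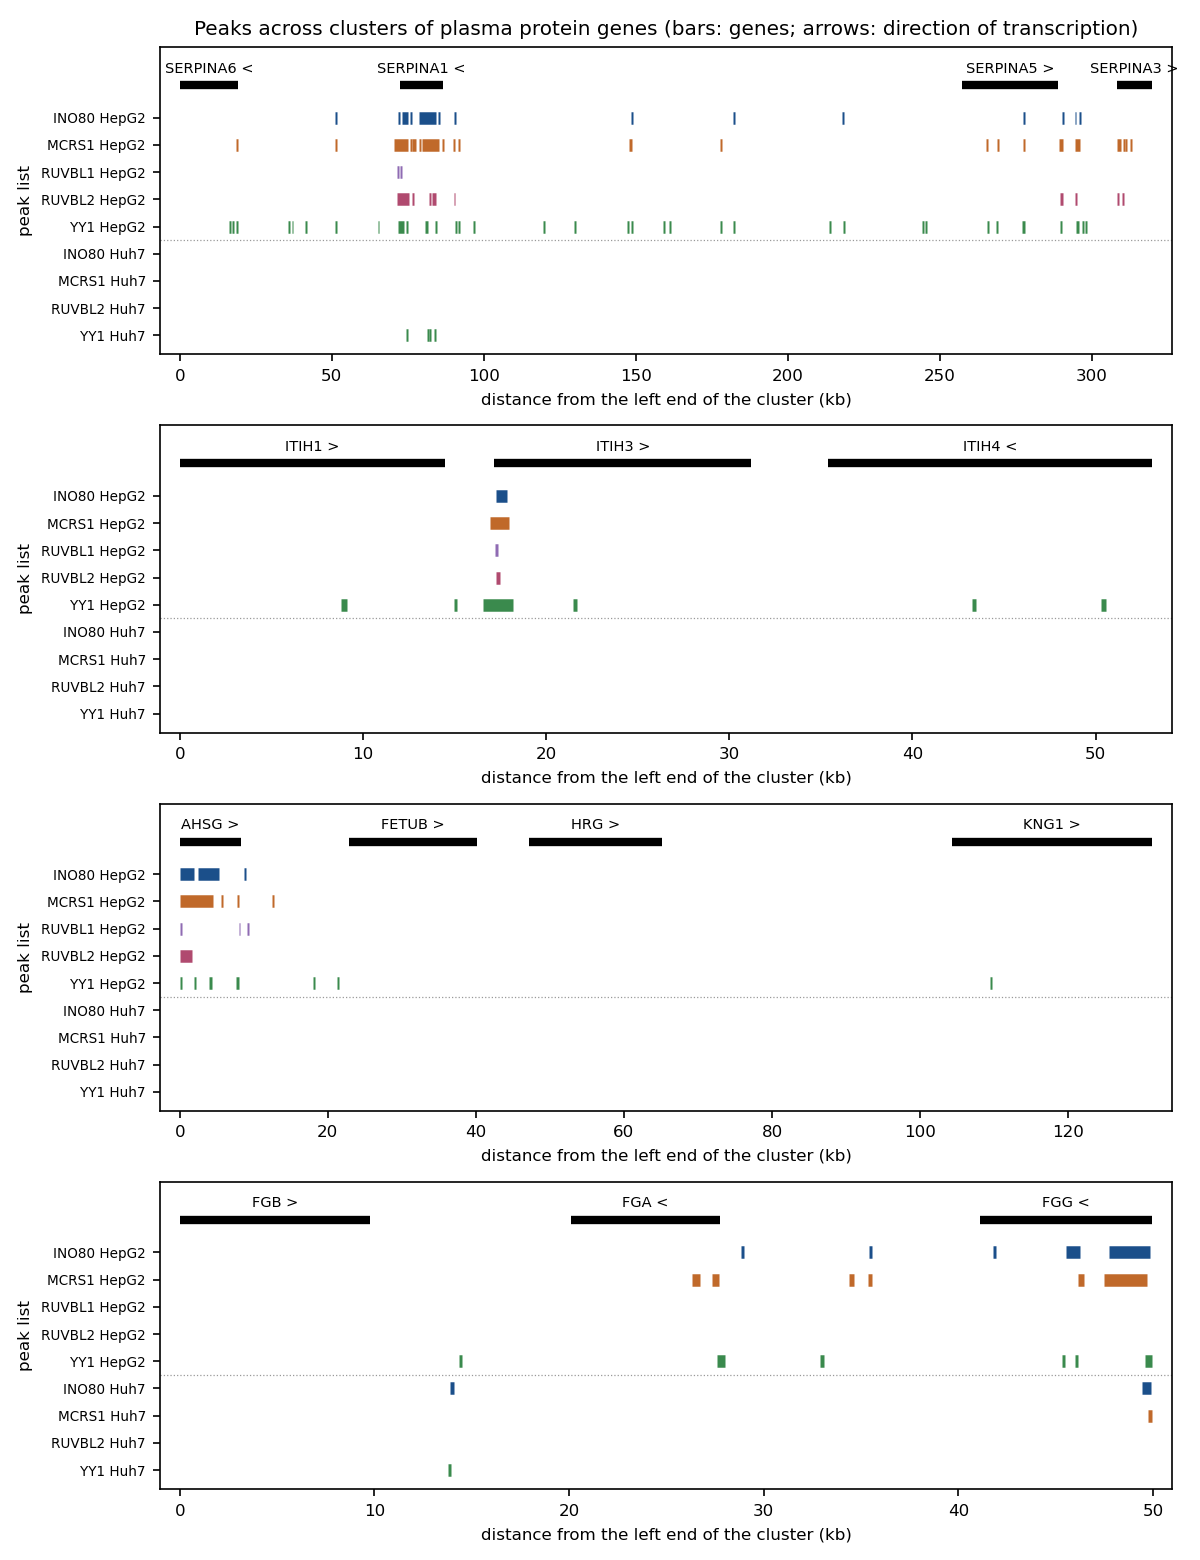
Peaks of each list (rows) along 4 clusters of plasma protein genes (horizontal axis, kb from the left end), with genes as black bars and peaks as coloured blocks drawn to scale with a least visible width. HepG2 rows hold 14 INO80 peaks in the serpin cluster and Huh7 rows hold 0, and the ITIH and AHSG clusters are empty in all Huh7 rows.

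Motifs of liver factors were searched on both strands from 250 bases before to 50 after the canonical start. The HNF1 motif, 10 letters long with any base at its seventh place, was in the window of 5 members, F13B, PLG, FGA, C4BPA and C5 (9.80%), against 0.268% of coding genes and 0.733% of CpG-poor ones. The sites are shown because this motif was, by ratio, the one furthest from its share among coding genes. Each line gives 30 bases of hg19 on the strand of the gene with the site in capitals, from chr1:197036431-197036460, chr6:161123216-161123245, chr4:155511931-155511960, chr1:207277518-207277547 and chr9:123812604-123812633 in the order of the lines. Some sites read as the reverse complement.
F13B: agaggttataAATTATTAACtttttcctca
PLG: tctctgagagAATCATTAACttaatttgac
FGA: ggacaaagccAATGATTAACcaaacctctt
C4BPA: tatttctgctGTTAATCATTcattgggccc
C5: ttctgacattAATAATTAACcagattatct
Of these 5 genes, C5 alone had INO80 within 1 kb of the start that carries the site, in HepG2.

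Other motifs were closer to the share among CpG-poor genes. C/EBP (TTGCNNAA) was in 11 windows, or 21.6%, against 8.08% of coding genes and 13.3% of CpG-poor ones. FOXA (TGTTTNC) was in 14, or 27.5%, against 14.1% and 22.8%, and the TATA box (TATAAA) in 12, or 23.5%, against 9.74% and 21.9%. STAT3 (TTCNNNGAA) was in 12, or 23.5%, against 6.42% and 9.62%, and HNF4 (CAAAGTCCA) in F10 and AHSG, or 3.92%, against 0.339% and 0.861%. The YY1 motif (GCCATNTT) was in KNG1 alone, or 1.96%, against 8.07% and 3.79%, although KNG1 had no YY1 peak at a start.

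In the 300 bases at the centre of the INO80 peak in HepG2, the YY1 motif was at C5 alone of 32 members, or 3.12%, against 7.73% of INO80 peaks at coding starts. The letters TATAAA were there at 9 of 32, or 28.1%, against 2.83% of INO80 peaks at coding starts. The 9 were F11, FGG, TTR, ORM1, C3, CFB, ITIH2, CP and FGL1. The share of 2.83% covers starts of any CpG content, while most members are CpG-poor. The centre of a wide peak can lie away from the start, so these letters need not be a TATA box. F11, FGG, C3 and ITIH2 had no TATAAA in the promoter window, and the promoter sites of CP and FGL1 lay outside these 300 bases. In Huh7 the letters were in 0 of 12, against 3.14%.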

How the data were processed

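The tools named in the submitters' processing notes, without versions, are MACS2, Bowtie2, deepTools, bedtools and SAMtools, and the build of the human lists is hg19. The authors deposited 9 filtered peak lists that hold positions and no height, score or other signal, and starts were converted to 1-based coordinates. The sources used here do not say if libraries were pooled before peaks were called. The H3K27ac and input libraries and the fly spike-in table were not used here.

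Genes came from GENCODE release 44 lifted to GRCh37, the sequence of hg19, with 1 record per symbol. Bound genes are those with a peak no further than 1 kb from any start of their basic-set protein-coding transcripts, and a body was the gene record with at least 1 bp of overlap. Width took the place of the enrichment that was planned. Overlap code was tested on made-up peaks with known answers, using Python 3.11.15 and numpy 2.4.6, with figures by matplotlib 3.10.9. No statistical test was run.

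Full values were planned for the 10 members with the widest INO80 peak in HepG2 and those with INO80 in Huh7. The plan also held the 5 with the most covered body for INO80, MCRS1 and YY1. It further held the 3 with the widest RUVBL1 and RUVBL2 peaks, and those bound in Huh7 alone. Of these, PROS1, PROC, F5, F7, RBP4, C5, ORM1 and ORM2 have widths at a start given for INO80 alone. Values named beyond this plan were chosen after they were seen, as were the windows printed, which leave out bases after the start and exons. The members and lists were chosen with earlier results of these data known. Alternatives were other windows, starts, peak widths and list lengths, other cuts for covered bodies, and sets without some chromosomes or genes.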

Additional observations from a re-analysis of the deposited data

How the results depend on the processing

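No paired analysis was possible because each factor has 1 list per line, in which no library is named. A count is called moved where it differs by over 1.5 times from the reported one. Of the alternatives, 13 of 90 values moved for peaks at a start, 10 of 36 for peaks in the body, 2 of 36 for median widths and 7 of 27 for covered bodies. With the 3322 widest peaks of each list, members with a peak at a start were 14 for INO80, 18 for MCRS1, 10 for RUVBL1, 11 for RUVBL2 and 6 for YY1 in HepG2, and 4 for INO80, 3 for MCRS1 and 3 for YY1 in Huh7. In the body these lists gave 14 for INO80, 18 for MCRS1, 12 for RUVBL2 and 7 for YY1 in HepG2, and 3 for INO80, 2 for MCRS1 and 3 for YY1 in Huh7. With the wider 50% of each list there were 8 for RUVBL1 and 15 for RUVBL2 at a start in HepG2, and 2 for MCRS1, 1 for RUVBL2 and 7 for YY1 in Huh7. Fewer peaks enter these alternatives by construction. A body overlap of at least 200 bp gave 10 for RUVBL1 in HepG2, 3 for MCRS1 and 1 for RUVBL2 in Huh7. Starts within 5 kb gave median widths in Huh7 of 470 bp for INO80 and 150 bp for RUVBL2. Bodies covered by at least 25% were 4 for INO80, 7 for MCRS1, 2 for RUVBL2 and 1 for YY1 in HepG2 and 1 for YY1 in Huh7, and at 75% there were 0 for INO80 and 0 for MCRS1.

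Windows of 250 bp or 5 kb, 1 canonical start per gene, starts of all transcripts, peaks set to 200 bp, and leaving out chromosomes 2, 14, 16, 17 and 20 (present in extra copies in HepG2, from general knowledge of the line) moved no count of members at a start. Neither did leaving out HP, ORM1 and ORM2, an alternative chosen after seeing the data. INO80 in HepG2 was at 24 of 41 members off those chromosomes. Shorter lists in Huh7 and unknown depth limit what the absence of a peak there can show, and a width follows depth and the caller's merging of peaks as well as occupancy.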

Other observations

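A further 46 genes of liver plasma proteins, none of them among the 51, include albumin (ALB), apolipoproteins, clotting factor IX (F9) and late complement genes. In HepG2, INO80 was at a start of 17 of the 46 (37.0%), against 63.7% of coding genes, MCRS1 at 22 (47.8%) against 58.1%, and RUVBL2 at 13 (28.3%) against 39.1%. RUVBL1 at 7 (15.2%) and YY1 at 28 (60.9%) were near the shares of coding genes, 16.8% and 62.6%. In Huh7, INO80 was at 2 (4.35%) against 47.7%, MCRS1 at 1 (2.17%) against 21.8%, RUVBL2 at 3 (6.52%) against 12.7%, and YY1 at 6 (13%) against 51.5%. The median width of their INO80 peaks in HepG2 was 1416 bp, near the 1525 bp of the 51, and a median of 89.7% of the peak lay downstream of the start. At least 50% of the body was covered by INO80 in HepG2 at 5 of the 46 (10.9%), against 2.11% of coding genes and 2 of the 51.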
